A study of Mus musculus with 2 samples.

Results

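Mir191 and Mir425 are the hairpins of 1 small microRNA cluster that is commonly placed in the gene Dalrd3. They were taken by their GENCODE M21 symbols and matched by Ensembl gene identifier, ENSMUSG00000105497.1 for Mir191 and ENSMUSG00000065579.1 for Mir425, which gave 2 of the 2202 hairpins in the tables. The rule uses names and no measured value, although the members were proposed with earlier results of these data known. The reads came from heart tissue of 2 female B6CASTF1/J mice, offspring of a cross between C57BL/6J and CAST/EiJ, aged 25 days and labelled biological replicates 2 and 1 of 1 group. Both animals shared strain, sex, age and tissue, and no other group was analysed here. The age field gives days, while a free-text label gives the unit as months, and the age field is followed here. Both samples carry 1 donor identifier although their descriptions number the animals separately. The count of 2 animals and the SDs below (n = 2) thus rest on the replicate labels.

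MicroRNAs are cut from a folded precursor, the hairpin, and the mature strands from its 5′ and 3′ arms guide Argonaute proteins to messenger RNAs, mainly through the seed, bases 2 to 8. Mir191 and Mir425 are present in many tissues, and miR-191 is often used as a reference in microRNA assays. In mouse erythroblasts, a fall of miR-191 is known to be needed for the loss of the nucleus. In human, miR-425 is known to repress NPPA, the gene of the heart hormone atrial natriuretic peptide. Dalrd3 encodes a protein known in human cells to take part in methylation of arginine transfer RNAs.

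The 4 mature strands are shown because they define what each hairpin can make and show that the members are not copies of each other. Letters are RefSeq's on GRCm38.p6, and capitals mark the seed.
miR-191-5p: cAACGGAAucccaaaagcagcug
miR-191-3p: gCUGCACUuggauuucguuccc
miR-425-5p: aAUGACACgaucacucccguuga
miR-425-3p: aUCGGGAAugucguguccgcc
The seeds of the 4 strands all differ. In the RefSeq table of 1738 mouse mature sequences, 32.0% shared a seed with another hairpin, and of these strands that held for miR-425-5p only. Its seed partner was miR-489-3p of Mir489 on chromosome 6, whose remaining bases differ.
miR-489-3p: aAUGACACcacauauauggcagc
Mir489 had 0 counts in both hearts, which allows up to 1.13 CPM in replicate 2 and 1.46 CPM in replicate 1. Of the hairpins in that table that can give this seed, Mir425 was thus the only one with counts, and its counts do not say which arm they came from. CPM is the share of a hairpin in all hairpin counts on the counts-per-1000000 scale, and these limits stand for 3 counts.

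The hairpins are shown next, with the 2 mature strands of each in capitals, because the tables count whole hairpins and do not separate the arms.
Mir191: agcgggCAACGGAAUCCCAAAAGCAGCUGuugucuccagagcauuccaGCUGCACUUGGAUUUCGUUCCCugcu
Mir425: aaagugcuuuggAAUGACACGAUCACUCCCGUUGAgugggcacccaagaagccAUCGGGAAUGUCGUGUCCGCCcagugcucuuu
Mir191 is 74 bases long and Mir425 85 bases, with 54.1% G and C each. The computed folding energy was -35 kcal/mol for Mir191, or -0.47 per base, and 22.3% of 1005 RefSeq mouse hairpins had a lower value per base. For Mir425 it was -31.7 kcal/mol, or -0.37 per base, with 64.3% of hairpins lower and a median over hairpins of -0.41. Neither hairpin was therefore extreme in its predicted fold. Leaving out the hairpin opposite Mir191, the longest run shared with any other annotated hairpin was 12 bases for miR-191-5p, 11 for miR-191-3p, 10 for miR-425-5p and 9 for miR-425-3p, all well short of a mature strand. Reads matching several places, which entered no hairpin count, made up 41.6% of replicate 2 and 38.5% of replicate 1. Whether reads from these strands were among them was not tested beyond the annotated hairpins.

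The cluster lies on the plus strand of chromosome 9, and the gene around it depends on the annotation. Mir191 spans chr9:108568319-108568392 and Mir425 chr9:108568777-108568861 in mm10, with 384 bases between them. In GENCODE M21, 0 of the 2 hairpins lay inside Dalrd3, whose 9 transcripts all began downstream. Its gene starts at 108569886, which is 1493 bases past Mir191 and 1024 bases past Mir425. The M21 gene that holds both is 4833445I07Rik, a lincRNA from 108567533 to 108569174. Mir191 sits in the exon of its longer, unspliced transcript and in the intron of its shorter, spliced one, while Mir425 sits in the exon of the longer and begins after a gap of 2 bases past the end of the shorter. RefSeq on GRCm38.p6 gives Dalrd3 the span from 108567484 to 108572773, which takes in both hairpins, so "in Dalrd3" holds for the RefSeq span and not for the M21 gene. The tables hold no counts for these long transcripts.

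**Figure D1:**
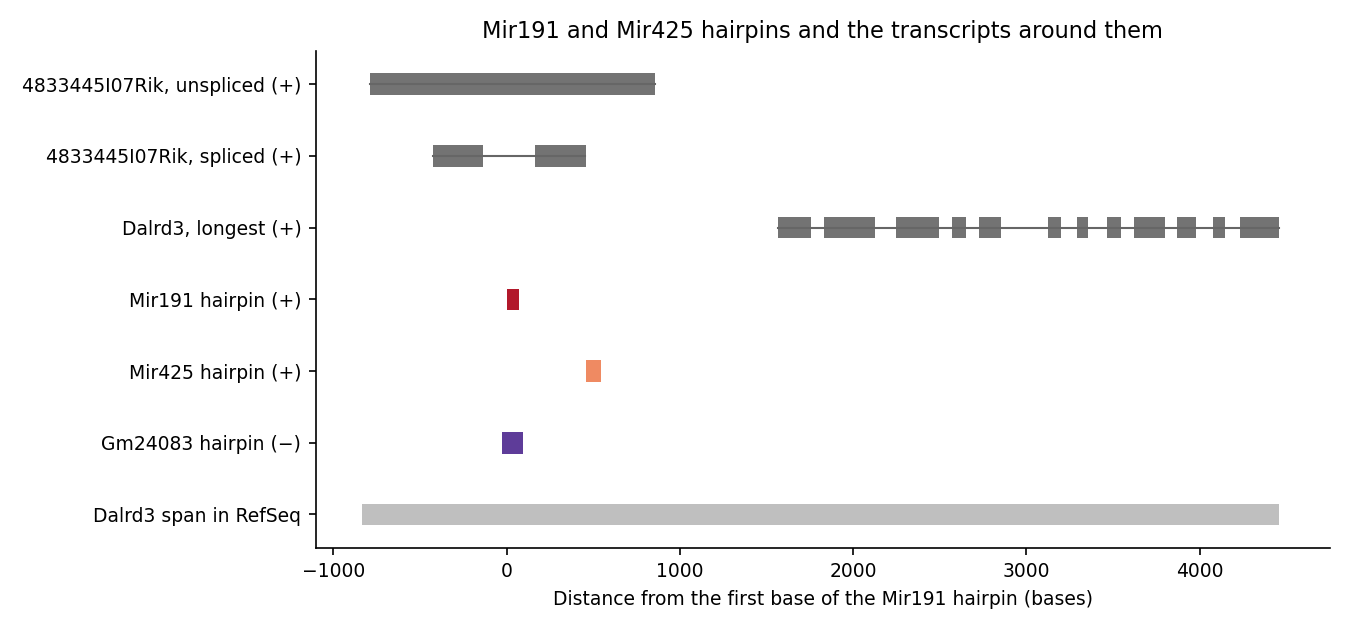
Positions of the hairpins and of nearby transcripts, as distance in bases from the first base of Mir191, with exons as boxes and introns as lines, strand in brackets. Both hairpins fall within the unspliced transcript of 4833445I07Rik and upstream of the longest GENCODE M21 transcript of Dalrd3, whose first base lies 1024 bases past Mir425, while the RefSeq span of Dalrd3 covers them.

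GENCODE M21 also places a hairpin gene, Gm24083, on the minus strand across Mir191 (chr9:108568295-108568414). Gm24083 extends 24 bases to the left and 22 bases to the right of Mir191 in plus-strand coordinates, an order reversed in its minus-strand sequence below. Its 120 bases are shown because the strand columns turn on it, and capitals mark the stretch that is the exact reverse complement of the Mir191 hairpin.
Gm24083: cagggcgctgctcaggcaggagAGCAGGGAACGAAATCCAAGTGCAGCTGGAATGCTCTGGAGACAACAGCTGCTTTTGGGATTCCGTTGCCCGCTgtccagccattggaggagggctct
Mir425 has no annotated hairpin on its other strand.

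The strand of the reads decided whether Mir191 was seen at all. In the column for reads on the strand of the hairpin, Mir191 had 32582 counts in replicate 2 and 22709 in replicate 1. In the column for reads on either strand it stood at 0 in both, and in the column for the opposite strand also at 0 in both. Gm24083 was the mirror image, with 32582 and 22709 counts in its opposite-strand column in replicates 2 and 1 and 0 counts on its own strand in both. The reads of the locus were thus all on the strand of Mir191, and 0 counts on the strand of Gm24083 allow at most 1.13 CPM in replicate 2 and 1.46 CPM in replicate 1.

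Without strand, reads over overlapping hairpins fell into a row of ambiguous reads, 768383 in replicate 2 and 609641 in replicate 1, against 0 in both with strand. The counts of Mir191 equal 4.24% of that row in replicate 2 and 3.72% in replicate 1. By mean CPM, Mir191 was number 2 of 15 hairpins that had at least 100 counts per library with strand and 0 without. Mir425 kept all of its reads, with 1474 counts in replicate 2 and 1313 in replicate 1 in both the stranded and the either-strand column, and 0 on the opposite strand. The stranded column is used from here on.

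**Figure D2:**
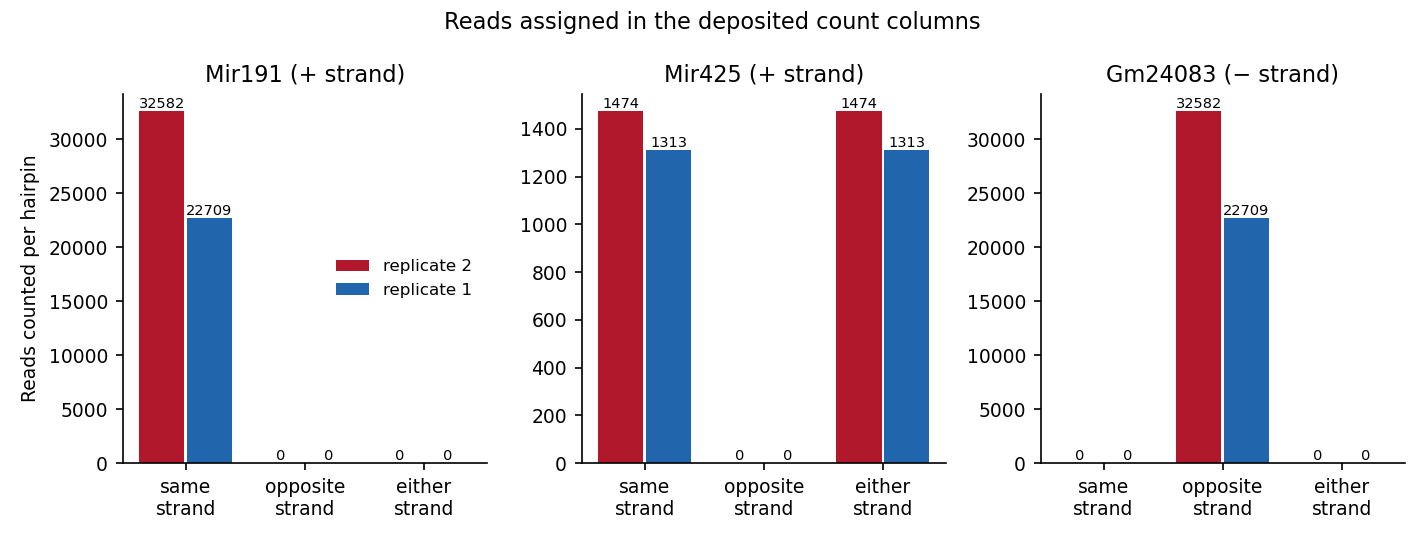
Reads counted for Mir191, Mir425 and Gm24083 in the 3 deposited columns, with replicate 2 left of replicate 1; each bar is 1 library, and each panel has its own axis from 0. The 32582 and 22709 reads of Mir191 appear only with strand, and under Gm24083 as opposite-strand reads, while the 1474 and 1313 reads of Mir425 are the same without strand.

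Mir191 was one of the most counted hairpins of both hearts, and Mir425 had a middle to high level. The tables held 6452546 reads in replicate 2 and 5005996 in replicate 1, of which 2661090 and 2050498 were assigned to hairpins, and 288 hairpins reached 10 counts in each library. Mir191 reached 12244 CPM in replicate 2 (95% exact Poisson interval 12111 to 12377) and 11075 CPM in replicate 1 (10931 to 11220). Its mean was 11659 ± 827 CPM, or 1.17% ± 0.0827 of hairpin counts. It ranked 14 in replicate 2 and 19 in replicate 1. Levels, shares and ranks here leave out reads matching several places, so hairpins with duplicated loci can stand too low in the order.

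Mir425 had 554 CPM in replicate 2 (526 to 583) and 640 CPM in replicate 1 (606 to 676). The mean was 597 ± 61.1 CPM, or 0.0597% ± 0.00611 of hairpin counts. Its ranks were 74 and 80 in replicates 2 and 1. The intervals cover counting error only, since PCR copies were not told apart, and they span about 1.09% and 1.30% to each side for Mir191 in replicates 2 and 1, against 5.11% and 5.41% for the less counted Mir425. Both members were above the middle of the detected hairpins: Mir191 stood at 146 times their median CPM in replicate 2 and 106 times in replicate 1, and Mir425 at 6.62 and 6.15 times. Among the 96 hairpins on chromosome 9, Mir191 was number 2 in both libraries after Mirlet7g, a let-7 hairpin, with 14.7% of the counts of that chromosome in replicate 2 and 14.4% in replicate 1, and Mir425 was number 4 in both.

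The tissue label was checked against microRNA lists. Of 7 heart muscle hairpins, 4 were detected, and the summed level was 8308 CPM in replicate 2 and 4493 CPM in replicate 1. Mir1a-1, Mir133a-1 and Mir133a-2, which were not detected, and the low Mir1a-2 carry a locus number. Reads shared with a second locus enter no count, so their low counts and the sums do not measure muscle content. Mir208a carried that difference (5862 CPM in replicate 2 and 1620 CPM in replicate 1), while the other 3 detected, Mir499 (2317 and 2629 CPM), Mir208b (112 and 191 CPM) and Mir1a-2 (11.6 and 45.8 CPM), were lower in replicate 2. All 3 neuronal Mir124a hairpins were at 0 in both. They also carry a locus number, so reads shared among them would enter no count, and these zeros cannot show absence. The 3 erythroid hairpins summed to 869 CPM in replicate 2 and 1783 CPM in replicate 1, and the 4 leukocyte hairpins to 4648 and 4647 CPM, a sum in which Mir150 (2509 and 1343 CPM) and Mir155 (1632 and 2981 CPM) differed in opposite directions. The endothelial hairpin Mir126a had 60950 CPM in replicate 2 and 108082 CPM in replicate 1. Of the epithelial hairpins, Mir205 had 4 counts in replicate 2 and 238 in replicate 1, and Mir200c 180 and 176 CPM. The liver hairpin Mir122 had 203 and 22.9 CPM in replicates 2 and 1. These microRNAs are cell type markers, while Mir191 and Mir425 are not, and the part of cell makeup in the members' levels was not tested.

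In the order of mean levels, the values of each member overlapped those of its neighbours. Neighbours were taken by closeness in mean CPM, which favours overlap, so this is a description only. Mir191 was number 16. Mir30d, just above it, had 12123 CPM in replicate 2 and 25244 CPM in replicate 1, and Mir149, just below, had 8038 and 14862 CPM, so the values of each neighbour overlapped those of Mir191. Mir425 was number 82, between Mir106b of the Mcm7 cluster (427 CPM in replicate 2 and 770 CPM in replicate 1) and Mir20a of the Mir17 cluster (555 and 614 CPM), with overlap again.

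The hairpins nearest in level were taken by the distance in log2(CPM + 1) over the 2 libraries, which says nothing of shared control. For Mir191 they were Mir30a (7919 and 12207 CPM in replicates 2 and 1, distance 0.64), Mir149 (distance 0.74) and Mir652 (7579 and 8196 CPM, distance 0.82). Even the nearest, Mir30a, was lower than Mir191 in replicate 2 and higher in replicate 1. For Mir425 the match was closer, with Mir20a at a distance of 0.06, Mir542, an X-linked hairpin, at 0.09 (582 and 619 CPM) and Mir541 of the Dlk1-Dio3 cluster at 0.25 (476 and 592 CPM).

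The only contrast in the design is replicate 2 over replicate 1, which asks how far the members varied between hearts of 1 kind. Both varied little. Mir191 had a log2 ratio of 0.37 on TMM-scaled CPM + 1 (counting SE 0.01), a fold of 1.30, with adjusted p = 6.76e-200 by an exact binomial test of its 2 counts, Benjamini-Hochberg adjusted over the 326 hairpins that reached 10 counts in either library. Mir425 had a log2 ratio of 0.02 (counting SE 0.05, 95% interval -0.09 to 0.13), with adjusted p = 0.763 by the same exact test. So 1 of the 2 members was called, where the test called 62.6% of all tested hairpins, 36.2% as higher and 26.4% as lower in replicate 2, and that share gives the call of Mir191 little weight. The split depends on scaling, with 118 called higher and 86 lower with TMM, against 76 higher and 117 lower by total hairpin count. The contrast is between 2 libraries, not conditions, and 2 samples allow no exact two-sided p below 0.5 for a difference between animals.

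Against the spread of all tested hairpins between the 2 libraries, both differences were small. The common BCV, the variation between libraries beyond counting error estimated by edgeR over 326 hairpins, members included, was 0.467. By a linear approximation this is an SD of 0.95 for a log2 ratio between 2 libraries. It does not separate animals from library preparation. The sign for Mir425 turned under 5 of 8 alternatives, while that of Mir191 held under all 7 that could be run. Scaling by total hairpin count moved the median of all tested hairpins from 0.09 to -0.14, and with it Mir191 to 0.14 and Mir425 to -0.21 (adjusted exact binomial p = 0.000335). Relative to the median of all tested hairpins, Mir191 stood at 0.29 and Mir425 at -0.07 with TMM, and at 0.28 and -0.07 by total count, so these distances barely moved.

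The distance of Mir425 from that median was among the small ones, with 9.51% of the 326 hairpins at most as far, and for Mir191 this share was 30.7%. Hairpins of like level were set beside the members as a description. Of 36 other hairpins within 2-fold of the mean CPM of Mir425, 30 lay farther from the median (median distance 0.62), and 33 were called. Of 10 within 2-fold of Mir191, 6 lay farther and 4 closer (median distance 0.48), a middle place, and 10 were called. Over all 326 tested hairpins 62.6% were called, and higher counts make a call easier.

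**Figure D3:**
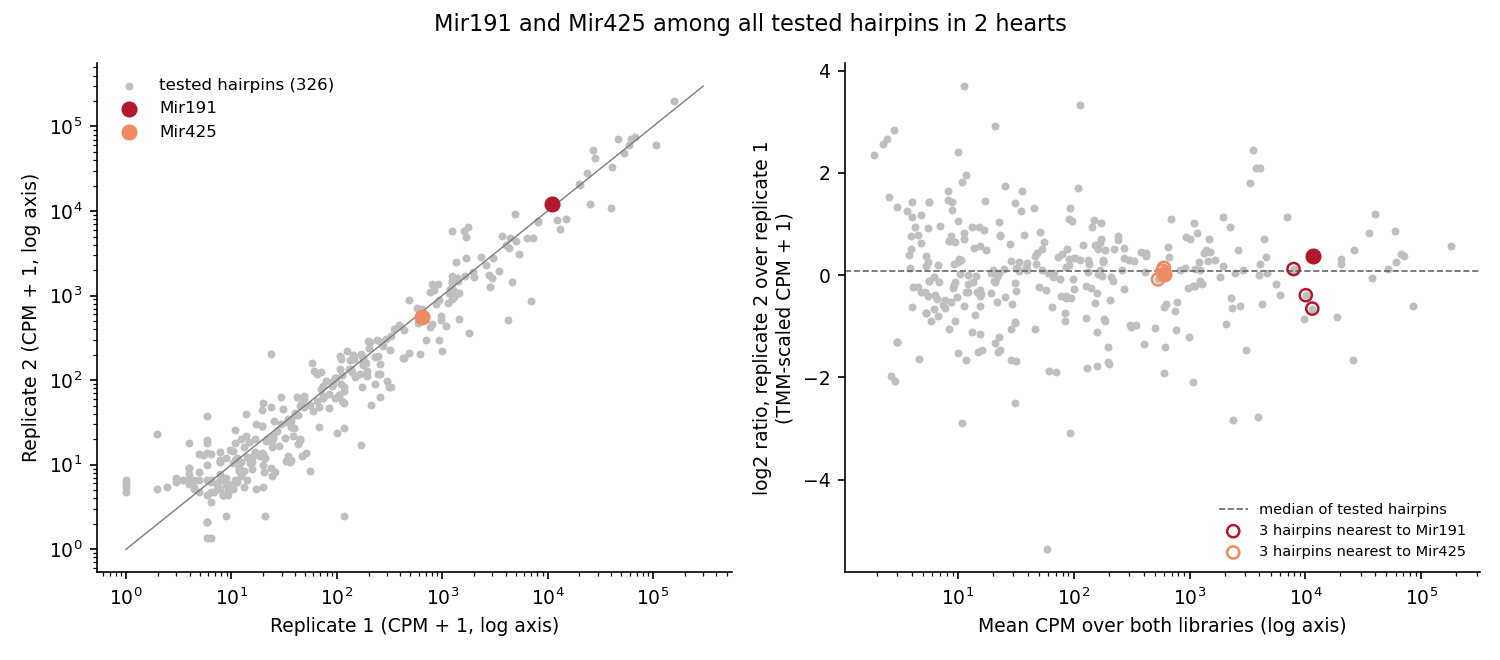
Left, CPM + 1 of 326 tested hairpins in replicate 2 against replicate 1 on log axes, with the line of equal values; right, log2 ratio of replicate 2 over replicate 1 against mean CPM, with the median of 0.09 dashed and the 3 hairpins nearest in level to each member circled. Mir191 lies at 0.37 and Mir425 at 0.02 on the right axis (0.14 and -0.21 when scaled by total count), both inside the cloud of hairpins of like level.

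Mir191 supplied nearly all counts of the pair, and its excess over Mir425 differed modestly between the hearts. Mir425 made up 4.33% of the pair in replicate 2 (exact Clopper-Pearson interval 4.11 to 4.55) and 5.47% in replicate 1 (5.18 to 5.76). The mean was 4.90% ± 0.804. The count ratio of Mir191 to Mir425 was 22.1 in replicate 2 and 17.3 in replicate 1, or 25.4 and 19.9 per base of hairpin. A ratio within a library needs no scaling, and its log2 value was 0.35 higher in replicate 2 (95% counting interval 0.24 to 0.46), a shift larger than counting error alone and not tested between animals. A read covers a mature strand, not a hairpin, and strands can differ in how well they are captured in a library, so the ratios hold for counted reads and are not ratios of molecules.

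Other small clusters mostly changed their inner ratio more than this pair did. Of 18 pairs of a leading hairpin and a partner in 14 other clusters, 16 had at least 10 counts for both hairpins in both libraries. Mir34b, with 3 and 2 counts in replicates 2 and 1, and Mir301b, with 5 and 0, left their pairs out. The ratio shifted more than that of Mir191 and Mir425 in 11 of them (median size 0.80 on the log2 scale, range 0.10 to 2.07). The smooth muscle pair Mir143 and Mir145a had ratios of 7.35 in replicate 2 and 22.8 in replicate 1, and Mir195a to Mir497 had 1.69 and 7.08. Mir221 to Mir222, from a cluster on the X chromosome, had the ratios most like those of Mir191 to Mir425 in the 2 libraries, with 22.0 and 19.7. An excess as large as that of Mir191 was not particular to this pair, since 6 of the 16 ratios were larger in replicate 2 and 7 in replicate 1. Several of these have a partner with a locus number, such as Mir24-1, Mir24-2 and Mir16-2. Reads such partners share with a second locus enter no count, so those ratios can be too high. Of pairs without a locus number, Mir132 to Mir212 (26.3 and 28.7) and Mir23a to Mir27a (66.1 and 32.1) were larger in both libraries.

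Over all neighbouring hairpins on 1 strand within 10 kb, 87 other pairs could be used. The shift was larger than that of Mir191 and Mir425 in 64 of them, with a median size of 0.67, and the ratio of leader to partner was larger in both libraries in 18. A pair needed only 10 counts per hairpin in each library, so counting error alone can enlarge the shift of less counted pairs. These counts of pairs therefore cannot show that the Mir191 pair is unusually steady. In 83 of the 87 the same hairpin led in both hearts, as Mir191 did. Neighbouring pairs overlap in their hairpins, and several partners carry a locus number, so that reads shared with a second locus would be missing from their counts.

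**Figure D4:**
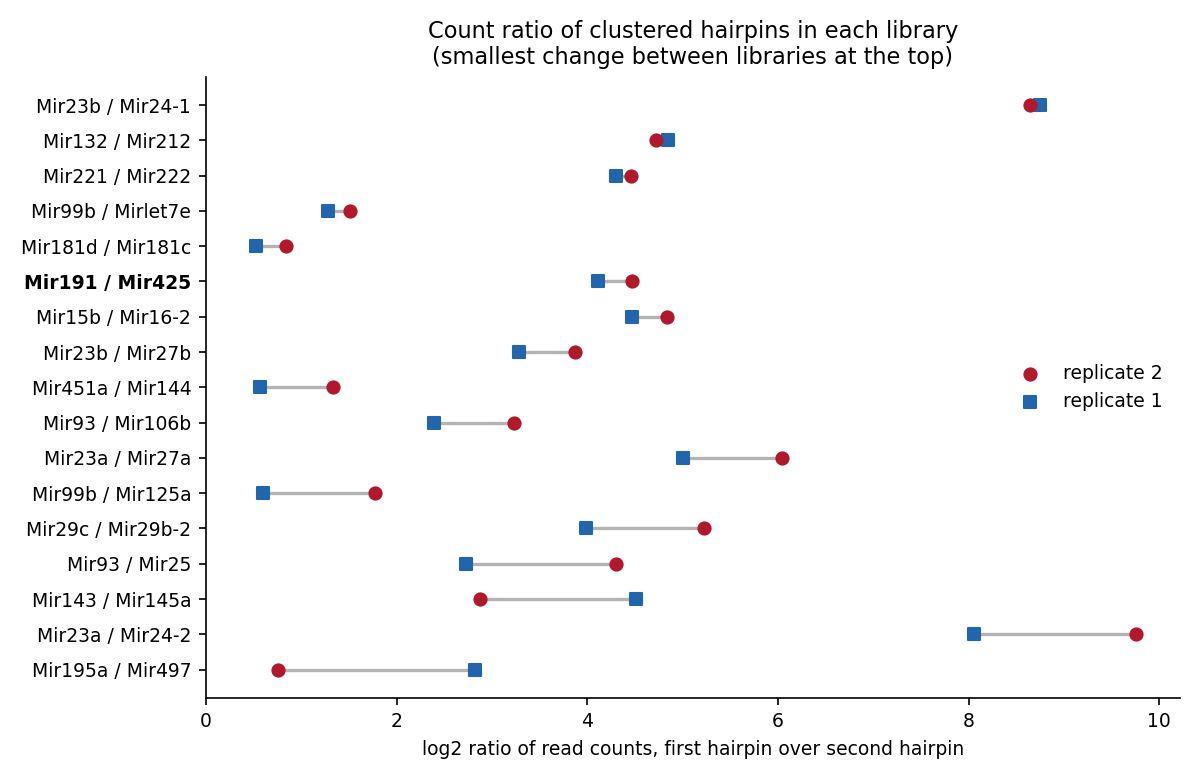
log2 ratio of the counts of 2 hairpins of the same cluster, in replicate 2 (circles) and replicate 1 (squares), for Mir191 over Mir425 (bold) and 16 pairs of other clusters, ordered from the smallest change between libraries at the top. The Mir191 pair moved by 0.35, less than 11 of the 16 other pairs by size alone. Counting error is not drawn, and some pairs share a leader.

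MicroRNAs that serve as references in quantitative PCR, as miR-191 and miR-425 do, were set beside the members. Of 14 listed hairpins 13 were tested, all but Mir103-1 with 5 and 4 counts in replicates 2 and 1, with 5 called higher and 7 lower in replicate 2 and a median log2 ratio of -0.60, against 0.09 over all tested hairpins. The list includes duplicated loci, such as Mir16-1 and Mir24-2, whose shared reads enter no count. Among the 6 without a locus number, 3 were called higher and 3 lower, from -1.36 for Mir25 to 0.45 for Mir361, with a median distance of 0.45 from the median of all hairpins. Mir93, of the Mcm7 cluster, had 4002 and 4060 CPM in replicates 2 and 1. Mir484, a hairpin made without Drosha, had 886 and 938 CPM. Their log2 distances from the median of all tested hairpins were 0.12 and 0.06. These CPM, scaled by total count, were slightly lower in replicate 2, while the TMM log2 ratios, 0.21 and 0.15, were called higher. By total count, 3 of the 13 tested references were called higher, 7 lower and 3 not called. Mir423 had 1943 and 3465 CPM, a larger difference. Counts by themselves, from 2 hearts of 1 group, cannot rank these microRNAs as references.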

How the data were processed

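MicroRNA reads of 2 heart libraries were analysed. Each deposited table gives raw hairpin counts in 3 columns (either strand, strand of the hairpin, opposite strand), on mm10 with GENCODE M21, per the file headers of the deposited text notes. No aligner or counter is named (not given in the sources used here). Reads matching several places have a row of their own and enter no hairpin. All 2202 identifiers matched GENCODE M21. Totals leave out rows without a hairpin name, 58.8% of reads in replicate 2 and 59.0% in replicate 1. CPM, intervals, TMM factors and dispersion (edgeR 4.0.16, R 4.3.3), the exact binomial test with its Benjamini-Hochberg adjustment at 0.05, and folding energies (ViennaRNA 2.7.2) were computed here. DESeq2 1.42.0 size factors, other filters, pseudocounts, totals and columns were tried. Fold changes are on log2(CPM + 1). Sequences are RefSeq's (GRCm38.p6), with identical letters in GENCODE M21 for both hairpins, and that of Gm24083 is GENCODE's.

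The members and lists were chosen with earlier results of these data known. Hairpins were named by a rule: the members, the 3 nearest in level to each, overlapping hairpins, hairpins sharing a seed, 14 clusters and 14 reference microRNAs. Cell type markers were named from separate lists. Mir30d, Mir106b and Mirlet7g were named after their values were seen.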

Additional observations from a re-analysis of the deposited data

Results flagged for a closer look

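These values lie outside the column used for the comparisons and exceed the floor of 3 counts, which does not show that they are unusual. Gm24083, on the minus strand over Mir191, had 32582 counts in replicate 2 and 22709 in replicate 1 in its opposite-strand column, the same numbers as Mir191 on its own strand. The row of ambiguous reads without regard to strand held 768383 reads in replicate 2 and 609641 in replicate 1.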

How the results depend on the processing

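Mir191 kept a log2 ratio above 0 and past the test in all 8 settings in which it was tested (0.14 to 0.37), while Mir425 was above 0 in 4 of 9. The log2 ratio of Mir425 was -0.21 by total hairpin count, -0.056 with DESeq2 size factors, -0.092 without the 10 highest hairpins, -0.15 with at least 50 counts and -0.084 with no filter beyond 1 count, and it passed the test by total count and with at least 50 counts (adjusted exact binomial p = 0.000335 and 0.0110). Relative to the median of all tested hairpins it stayed between -0.08 and -0.01, and Mir191 between 0.27 and 0.35. On either strand, Mir191 stood at 0 CPM with no ratio, Mir425 at 845 CPM, and Mir425 made up 100% of the pair. Per 1000000 of all reads the levels were 4793 for Mir191 and 245 for Mir425, and without the 10 highest hairpins 37552 and 1899 CPM, by construction of the totals. Leaving out each replicate gave 11075 to 12244 CPM for Mir191, 554 to 640 CPM for Mir425 and 4.33% to 5.47% for the share of Mir425, and leaves no ratio between libraries. The count of hairpins past the test, 204 of 326 tested, was 165 to 193 under 6 alternatives, but the number tested changed too. It was 165 of 223 with at least 50 counts and 177 of 648 with no filter beyond 1 count, so the share called was not stable. No paired analysis was possible because both libraries belong to 1 group.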
